A study of Arabidopsis thaliana with 10 samples.

Results

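Roots of Arabidopsis thaliana plants that overexpress SDI1 were compared with roots of the wild type Columbia, both supplied with full sulfate. The comparison rests on the 2 arrays of overexpression lines 6 and 12 (OX) and the 2 wild-type arrays (Col) that the titles place on full sulfate, 4 of the 10 ATH1 arrays of the study. OX plants were on medium with 1500 µM sulfate (+S) only. Double knockouts of sdi1sdi2 (KO), in lines 1 and 4, and Col plants were each on 15 µM sulfate (-S) and on +S, so the study had 5 groups of 2 arrays, all from plants 10 days old on agar with sucrose. The other 6 arrays entered the fit for the spread that all groups share. ATH1 is a short-oligonucleotide array, and 22197 of its probe sets, which are groups of probes for a transcript, were tested.

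The sources used here do not name the promoter of the SDI1 transgene. Each OX line was hybridised once, so line and array cannot be told apart. The labels do not say whether the paired Col arrays came from separate cultures, and the p-values then measure only the spread between these arrays, which may be technical. Values below are levels on a log2 scale whose zero point is unknown, group values are mean ± SD with n = 2, and differences are OX minus Col at +S with the SE of the fit. A probe set was called where limma gave a p under 0.05 after Benjamini-Hochberg adjustment across all tests. In these bulk root samples, fewer cells of a type and less RNA per cell cannot be told apart.

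SDI1 and SDI2 (SULFUR DEFICIENCY INDUCED) are related proteins whose transcripts accumulate when sulfur is short. SDI1 is known to bind the transcription factor MYB28 and to repress the genes of aliphatic glucosinolate synthesis. Glucosinolates are sulfur-rich defence compounds of the cabbage family, and the aliphatic ones are built from methionine by chain elongation, core synthesis and side-chain modification. The sulfur comes from sulfate, which ATP sulfurylase activates and which APS reductase and sulfite reductase reduce to sulfide for cysteine.

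The array annotation used here lists no probe set for SDI1 (AT5G48850), so the overexpression itself was not checked by gene name. SDI2 (AT1G04770) had levels of 1.52 and 1.86 in OX lines 6 and 12, against 1.83 and 1.57 in the Col +S arrays. The groups overlapped, with a difference of -0.01 ± 0.50 (adjusted p = 0.9999), so no change of SDI2 was detected. MS5L1, a member of the related MS5-like family, differed by 0.06 ± 0.10. Probe set 248676_at, which the annotation gives no gene, was chosen here for having the largest fitted rise. It read 7.95 and 8.52 in OX lines 6 and 12, against -0.96 and -1.08 in the Col +S arrays. Both Col +S arrays lay under their background level, set from bacterial control probe sets, so the rise was at least 402-fold (adjusted p = 1.547e-07). The same probe set stood at -1.71 and -1.40 in KO -S, against 8.86 and 9.13 in Col -S.

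At full sulfate, 144 of the 22197 probe sets were called in OX against Col (0.649% of those tested). Of these, 54 were higher in OX (0.243%) and 90 were lower (0.405%), with 25 of the rises and 52 of the falls at least 2-fold. At least 4-fold, there were 4 rises and 14 falls. These folds are fitted differences, also where a group lay under background and only a smaller fold is assured. COR27 is among the 4 rises by its fitted 2.19 on the log2 scale, but was at least 1.87-fold higher. AT2G36690 is likewise among the 52 falls, but was at least 1.34-fold lower. The median rise was 0.99 and the median fall -1.03, beside a median difference of 0.03 over all tested probe sets. Without adjustment, 1999 of the 22197 had a limma p under 0.05. OX and Col +S arrays overlapped for none of the 144, which also holds for 37.7% of all tested probe sets. A single gene is listed for 63 of them, 26 higher and 37 lower, and 80 have no listed gene. The count fell to 36 without Col +S array 1, 58 without Col +S array 2, 50 without OX line 6, 79 without OX line 12 and 94 without either KO +S array. A replicate block, with KO blocked by line and Col by label number, gave 75. In all 10 fits that left out an array, 34 probe sets were called, 9 higher and 25 lower.

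**Figure D1:**
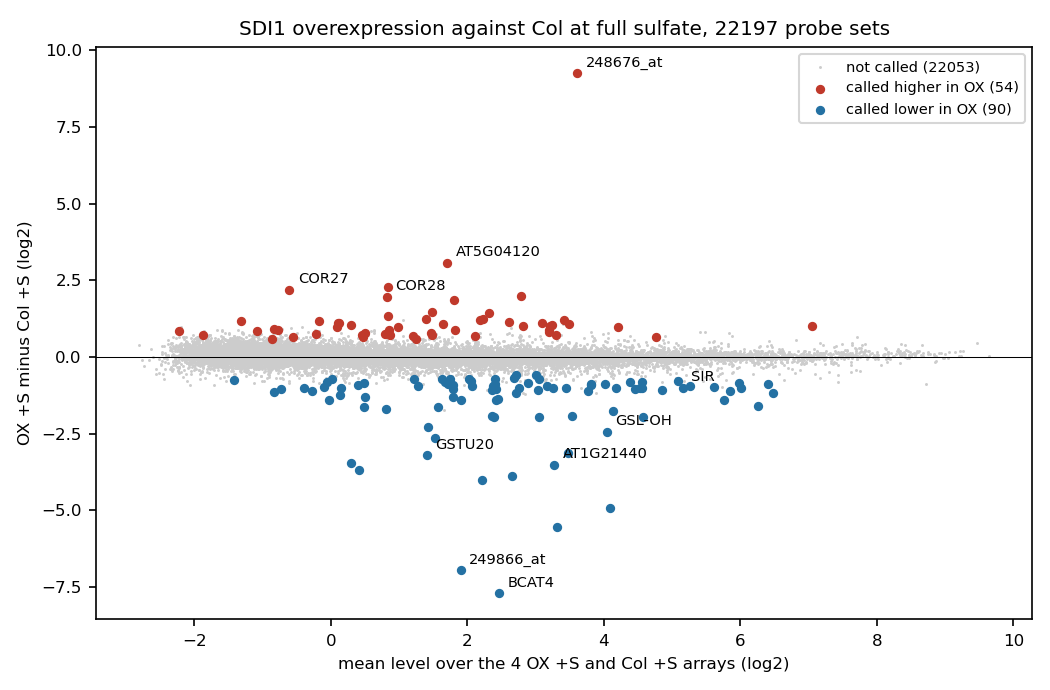
Difference between OX and Col at +S (log2, vertical axis) against the mean level over the 4 arrays (log2, horizontal axis), 1 point per tested probe set, with called ones in colour. The 14 falls of at least 4-fold lie far below the mass of points, while 248676_at stands alone at the top.

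The deepest fall of a named gene was in the synthesis of aliphatic glucosinolates. Of the 29 genes on that list, 5 had a listed probe set, and 4 of the 5 were lower in OX and none higher, with a median difference of -2.43. BCAT4 (AT3G19710), the aminotransferase that starts methionine chain elongation, read -1.34 and -1.42 in OX lines 6 and 12, against 6.40 and 6.22 in the Col +S arrays. Both OX arrays were under background, and BCAT4 was at least 87.6-fold lower in OX (adjusted p = 4.342e-07).

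The core of the molecule is built by enzymes that join the sulfur donor and then the sugar. GSTU20 (AT1G78370), a tau-class glutathione transferase of this core, had levels of -0.20 and -0.19 in OX, against 3.05 and 2.97 in Col +S. Only the line 12 array lay above its background, and the difference was -3.20 ± 0.15 (adjusted p = 1.764e-05). UGT74C1 (AT2G31790), a glucosyltransferase of the core, stood at 0.39 and 0.19 in OX, against 2.69 and 2.43 in Col +S. All these arrays lay above background without overlap, and UGT74C1 fell by 2.27 on the log2 scale with an SE of 0.16 (adjusted p = 0.000276).

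Side chains are modified last. GSL-OH (AT2G25450), the oxygenase that hydroxylates the butenyl side chain, had levels of 2.88 and 2.78 in OX lines 6 and 12, against 5.16 and 5.36 in Col +S. It fell 5.38-fold and was still well above background in both lines (adjusted p = 1.118e-05). AOP3, an oxygenase of the same step, lay under background on all 4 arrays, so no fold is given. Averaged over the 5 measured genes, the level was 0.27 and 0.17 in the OX lines, against 3.39 and 3.23 in the Col +S arrays.

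**Figure D2:**
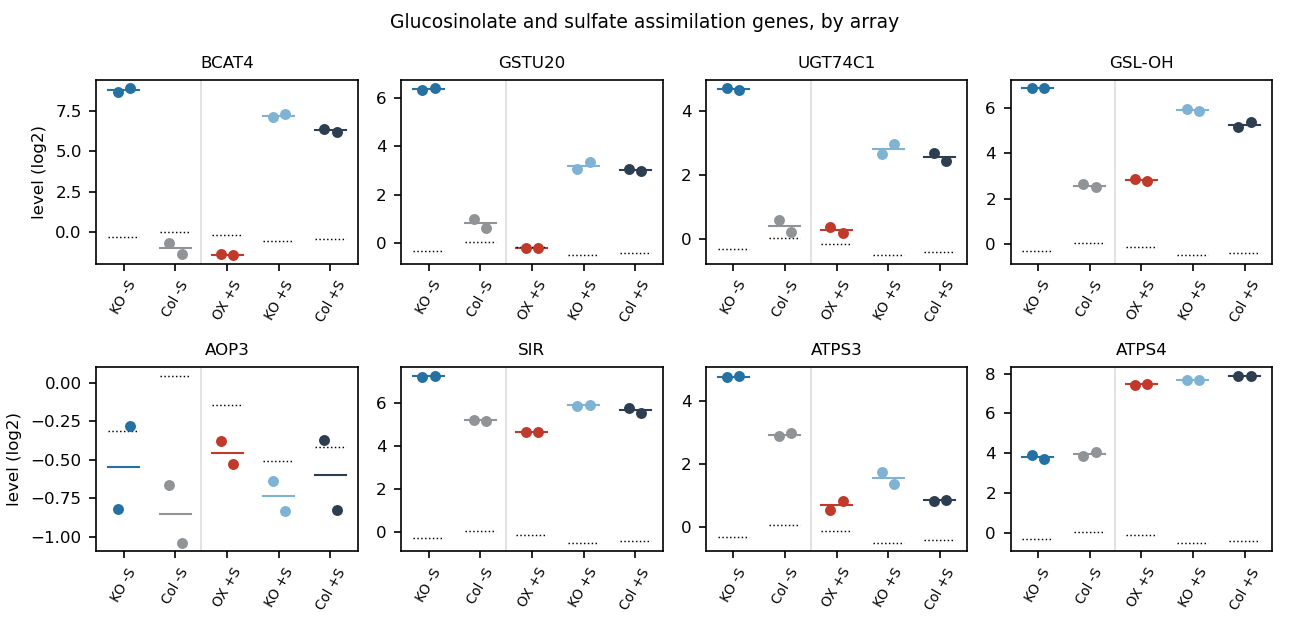
Level (log2, vertical axis) of 5 aliphatic glucosinolate genes and 3 sulfate assimilation genes on every array, grouped by genotype and sulfate, with bars for group means and dotted lines for the mean background. BCAT4, GSTU20, UGT74C1, GSL-OH and SIR are lower in OX +S than in Col +S, and AOP3 stays near background throughout.

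Of the 14 falls of at least 4-fold, 5 have a single listed gene and 9 have none. The single gene outside the glucosinolate list was AT1G21440, a member of the isocitrate lyase and phosphoenolpyruvate mutase superfamily. It stood at 1.54 and 1.51 in OX, against 5.02 and 5.04 in Col +S, a difference of -3.50 ± 0.11 (adjusted p = 1.184e-06). The SD within either group was at most 0.02, so the lines and the wild-type arrays each agreed closely. Among probe sets without a listed gene, the 3 largest falls were chosen for their values. Probe set 249866_at was at -1.57 in both OX lines, against 5.47 and 5.29 in Col +S, at least 45.9-fold lower. Probe sets 254687_at and 249867_at fell by 5.53 and 4.93 on the log2 scale.

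Other branches of glucosinolate metabolism gave no call at the 0.05 threshold by limma. Of their 7 measured genes, 3 had an unadjusted p under 0.05, beside 1999 of all 22197 tested probe sets. UGT74B1, a glucosyltransferase and the only measured gene of the 14 on the indolic list, differed by -0.37 ± 0.13 (adjusted p = 0.4112). The regulators MYC3 and MYC4, basic helix-loop-helix factors that act with the MYB regulators, differed by 0.09 and -0.11. MYC3 had levels of 2.95 and 3.02 in OX, against 2.91 and 2.88 in Col +S. The importer GTR1 read 1.98 and 1.85 in OX, against 1.02 and 1.30 in Col +S, a difference of 0.75 ± 0.19 that did not pass (adjusted p = 0.1628). Its relative GTR2 differed by -0.45 ± 0.15 (adjusted p = 0.3238). PYK10, an abundant root beta-glucosidase of the endoplasmic reticulum bodies, differed by -0.14 from a level of 8.94 in Col +S. BGLU28, a beta-glucosidase that is a marker of sulfur deficiency, lay under background on all 4 arrays. None of the MYB regulators of the list had a listed probe set, so their levels were not analysed here.

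In sulfate assimilation, the gene of the reduction step was lower in OX. SIR (AT5G04590), the only sulfite reductase of Arabidopsis, had a level of 4.66 in both OX lines, against 5.78 and 5.54 in the Col +S arrays. This was a fall of 1.00 on the log2 scale with an SE of 0.10 (adjusted p = 0.003598), and it was called in every alternative run. ATPS4, an ATP sulfurylase, stood at 7.46 and 7.49 in OX, against 7.91 and 7.90 in Col +S. Its groups did not overlap, yet the difference of -0.43 ± 0.11 did not pass (adjusted p = 0.1562). ATPS3, another ATP sulfurylase, differed by -0.16 ± 0.14 (adjusted p = 0.8501). With 3 of 24 genes measured, the list had a median of -0.43, 1 member lower and none higher. No sulfate transporter had a listed probe set.

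Neighbouring sulfur pathways gave few calls. None of the 3 measured genes of methionine and S-adenosylmethionine synthesis was called (limma, 0 with an unadjusted p under 0.05), with a median of -0.19. CBL, the cystathionine beta-lyase of methionine synthesis, had levels of 4.21 and 4.32 in OX, against 4.45 and 4.46 in Col +S (adjusted p = 0.6405). None of the 4 glutathione and thiol redox genes was called either (1 with an unadjusted p under 0.05), with a median of -0.15. GR1, a glutathione reductase, differed by -0.42 ± 0.09 (adjusted p = 0.08799). Outside these lists, and chosen after their values were seen, HL and MSRB5 were lower in OX. HL, a homologue of the yeast HAL2 nucleotidase, read 1.38 and 1.17 in OX, against 2.38 and 2.23 in Col +S, a fall of 1.03 on the log2 scale (adjusted p = 0.005602, lost at 0.07324 without Col +S array 1). MSRB5, a methionine sulfoxide reductase, read 5.41 and 5.70 in OX, against 6.34 and 6.48 in Col +S. Its fall of 0.85 (adjusted p = 0.01469) was lost without either Col +S array or OX line 6, at an adjusted p of up to 0.1357, and with the replicate block at 0.07349.

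The remaining large falls among named genes came from several gene families. AT3G14280 had levels of 2.53 and 2.61 in OX, against 4.50 and 4.47 in Col +S, which was 3.77-fold lower (adjusted p = 0.000131). AT2G01610, of the invertase and pectin methylesterase inhibitor family, stood at -0.46 and -0.19 in OX, against 1.31 and 1.30 in Col +S, with line 12 alone above background. It was 3.08-fold lower in OX (adjusted p = 0.0004558). Both were called in every alternative run, as was AT2G36690, a 2-oxoglutarate-dependent oxygenase that was at least 1.34-fold lower in OX, where both arrays lay under background. For AT2G36690 the KO +S arrays read -0.40 and -0.37, against 0.34 and 0.21 in Col +S. The KO +S arrays read 4.36 and 4.53 for AT3G14280, and 1.23 and 1.01 for AT2G01610.

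Smaller falls depended more on single arrays. Losses of a call are mostly given per gene for single arrays and the replicate block, and other settings also ended some calls. EXPB3, a beta-expansin that loosens cell walls, read 5.12 and 5.48 in OX, against 6.48 and 6.34 in Col +S, a fall of 1.11 on the log2 scale (adjusted p = 0.01107). The call was lost without either Col +S array or OX line 6, at an adjusted p of up to 0.1313. AT3G45700, of the NPF nitrate and peptide transporter family, fell by 1.10 (adjusted p = 0.005482) and was lost without either Col +S array. It read 4.30 and 4.35 in KO +S, against 4.26 and 4.36 in Col +S. AT5G38020, of the SABATH methyltransferase family, fell by 1.08 (adjusted p = 0.02363) and was lost without any single +S array, at up to 0.1826, and with the replicate block (0.09025). AT3G46280 fell by 1.07 (adjusted p = 0.01013) and was lost without any single array of the OX and Col +S groups, at up to 0.09927, and with the replicate block (0.05857).

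The 12 largest rises among named genes were led by AT5G04120, of the cofactor-dependent phosphoglycerate mutase-like family. It stood at 2.66 in OX line 6 and 3.82 in line 12, against -0.07 and 0.40 in the Col +S arrays. Both lines lay above both Col +S arrays, but they differed from each other by more than any other called probe set, and the rise was 3.07 ± 0.43 (adjusted p = 0.01656). The call was lost without either Col +S array or OX line 12, at an adjusted p of up to 0.1701, and with the replicate block at 0.0511.

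A pair of cold-regulated genes that also act on the circadian clock rose together. COR27 (AT5G42900) had levels of 0.50 and 0.47 in OX lines 6 and 12, against -1.91 and -1.50 in Col +S. Both Col +S arrays were under background, so the rise was at least 1.87-fold (adjusted p = 0.0005668). COR28 (AT4G33980), its homologue, stood at 1.61 and 2.01 in OX, against -0.43 and 0.10 in Col +S. It was 3.92-fold higher in OX by the fitted difference (adjusted p = 0.003841), with Col +S array 1 under background. COR27 and COR28 were called in every alternative run. KO +S arrays, which are set against the same Col +S arrays, read 1.17 and 1.49 for COR28, and -0.68 and -0.34 for COR27.

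The other members of the cold list did not pass. COR47, a dehydrin, had levels of 7.85 and 7.67 in OX, against 7.56 and 7.67 in Col +S, and COR15A lay under background on all 4 arrays. Of 18 cold genes, 5 were measured, 2 called higher and none lower, and the median of 0.16 is the value of COR15A itself. GI (GIGANTEA), the only measured member of the clock list of 27 genes, stood at 4.56 and 4.63 in OX, against 4.08 in both Col +S arrays. The GI difference of 0.52 ± 0.10 did not pass (adjusted p = 0.06002). For GI the KO +S arrays, set against the same Col +S arrays, read 4.66 and 4.52. The sources used here do not state the time of day at harvest, and its part in these values was not tested.

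Several other genes rose. AT5G47980, a BAHD acyltransferase encoded in the thalianol triterpene gene cluster, had levels of 2.52 and 2.96 in OX, against 0.82 and 0.95 in Col +S, which was 3.61-fold higher in OX (adjusted p = 0.002157). AT5G60760, related to 2-phosphoglycerate kinases, read 4.75 and 4.64 in OX, against 3.73 and 3.68 in Col +S, a rise of 0.98 ± 0.10 (adjusted p = 0.003598). These 2 were called in every alternative run.

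AT5G11420, of the DUF642 cell wall protein family, stood at 2.14 and 2.29 in OX, against 0.73 and 0.79 in Col +S, a 2.74-fold rise (adjusted p = 0.003598, and 0.05265 without Col +S array 1). PDC2, a pyruvate decarboxylase of ethanol fermentation, stood at 3.80 and 3.74 in OX, against 2.60 and 2.84 in Col +S. Its rise of 1.06 ± 0.12 (adjusted p = 0.006131) was lost without Col +S array 1 or OX line 6, at up to 0.07324. For PDC2 the KO +S arrays, set against the same Col +S arrays, read 3.66 and 3.67.

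AT5G66590, of the CAP secreted protein family, rose by 1.22 ± 0.14 (adjusted p = 0.005602) and was lost without either Col +S array or OX line 6. It read 2.98 and 2.70 in OX, 2.12 and 2.42 in KO +S, and 1.59 and 1.65 in Col +S. AT1G56300, a J-domain protein, rose by 1.08 ± 0.13 (adjusted p = 0.007955). It was lost without Col +S array 1 or OX line 12. AT1G56300 read 2.08 and 2.30 in OX, against 0.95 and 1.26 in Col +S. For it the KO +S arrays, set against the same Col +S arrays, read 2.07 and 2.02. AT1G14960, of the major latex protein-like family, rose by 1.00 ± 0.15 (adjusted p = 0.02157). It was lost without either Col +S array, OX line 12 or either KO +S array, at up to 0.1913, and with the replicate block (0.06829). Probe sets without a listed gene, chosen for their values, included 267364_at and 257985_at. Probe set 267364_at read 3.70 and 3.86 in OX, against 1.53 and 2.07 in Col +S (limma adjusted p = 0.001273). It was called in every alternative run. Probe set 257985_at read 1.86 and 2.08 in OX, against -0.31 and -0.28 in Col +S (limma adjusted p = 0.005602). The 257985_at call was lost without any single array of the OX and Col +S groups.

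**Figure D3:**
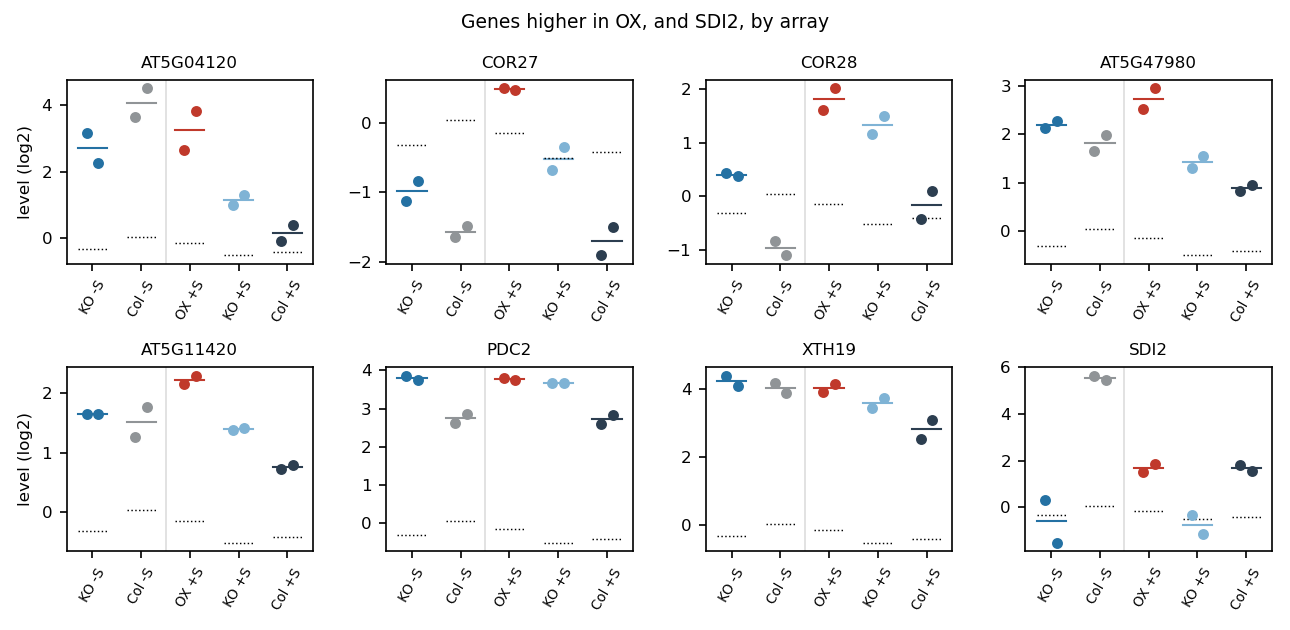
Level (log2, vertical axis) of 7 genes called higher in OX +S than in Col +S, and of SDI2, on every array, grouped by genotype and sulfate, with bars for group means and dotted lines for the mean background. SDI2 is high in Col -S and alike in OX +S and Col +S, and COR28 and PDC2 are lowest in Col grown at either sulfate level.

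Genes of cell wall loosening moved in both directions. Xyloglucan endotransglucosylases (XTH) cut and rejoin xyloglucan in the wall. Of 9 measured XTH genes, 2 were called higher (XTH19 and XTH26) and none lower. An unadjusted limma p under 0.05 was found for 7 of the 9, beside 1999 of all 22197 tested probe sets. The median of 0.60, beside 0.03 for all tested probe sets, is the value of XTH26 itself, which lay under background on all 4 arrays. XTH19 had levels of 3.91 and 4.13 in OX, against 2.53 and 3.10 in Col +S, a rise of 1.20 ± 0.21 (adjusted p = 0.04567). The call was lost without any single array other than Col +S array 2, at an adjusted p of up to 0.2603. The XTH26 call was lost without any single array of the 10, also at up to 0.2603, and the replicate block ended both calls (adjusted p = 0.1575 for XTH19 and 0.1118 for XTH26). XTH33, XTH18 and XTH20 had differences of 0.78, 0.67 and 0.65 that did not pass, and the part of cross-hybridisation between these close relatives was not tested.

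Expansins loosen the wall without cutting it. Of 18 measured, EXPB3 and EXPA4 were lower, EXLA2 was higher and 15 did not pass, with a median of 0.01. An unadjusted limma p under 0.05 was found for 4 of the 18, beside 1999 of all 22197 tested probe sets. EXPA4 read 5.03 and 5.21 in OX, against 6.22 and 5.98 in Col +S (adjusted p = 0.03111), and it was lost without any single Col -S, OX +S, KO +S or Col +S array, at up to 0.2591, and with the replicate block (0.08308). EXLA2, an expansin-like gene, read 0.46 and 0.70 in OX, against -0.35 and -0.43 in Col +S (adjusted p = 0.03111), and it was lost without any single +S array, at up to 0.2024, and with the replicate block (0.1247).

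Most other lists and families showed single calls or none. Of 48 UDP-glycosyltransferases, UGT74C1 was lower and 47 did not pass, with a median of 0.06. Of 11 tau-class glutathione transferases, GSTU20 was lower and 10 did not pass, with a median of -0.08. Of 14 SWEET sugar transporters, SWEET13 was higher (adjusted p = 0.03142). It lay under background on both Col +S arrays and on OX line 6, so the rise was at least 1.14-fold. Its call was lost without any single +S array and with the replicate block (adjusted p = 0.1372). Quantile normalization and the fits of only the 4 or the 6 +S arrays also ended it. Of 17 beta-glucosidases, BGLU44 was lower by 0.87 (adjusted p = 0.03879, lost without any single +S array at up to 0.2445 and with the replicate block at 0.1412). No member was called by limma among 21 cytochromes P450 (0 with an unadjusted p under 0.05), 22 TBL wall acetylation genes (1) or 15 GH9 endoglucanases (4). Nor was any among 7 calmodulin-like genes (2) or 6 WRKY factors (0). In the families with a call, this unadjusted count was 11 of 48 UDP-glycosyltransferases and 4 of 11 tau-class glutathione transferases. It was 2 of 14 SWEET transporters and 2 of 17 beta-glucosidases, beside 1999 of all 22197 tested probe sets.

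No call was made in the lists that follow. The 4 measured genes of iron deficiency had a median of -0.13, and the 6 of auxin response had a median of -0.05, each with 1 gene at an unadjusted limma p under 0.05. GH3.3, an auxin-conjugating enzyme, lay under background on both OX arrays and at -0.28 and -0.25 in Col +S, so no fold is given (adjusted p = 0.07245). The 4 genes of energy status and sugar starvation had a median of -0.18, with AT3G15450 at -0.81 (adjusted p = 0.224). None of the 2 heat shock, 2 cell cycle, 2 defence or 4 flavonoid genes measured had an unadjusted p under 0.05. No gene of jasmonate, phosphate or nitrate response had a listed probe set. In all, 67 of the 391 list genes were measured, so these counts leave most of each pathway unseen.

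**Figure D4:**
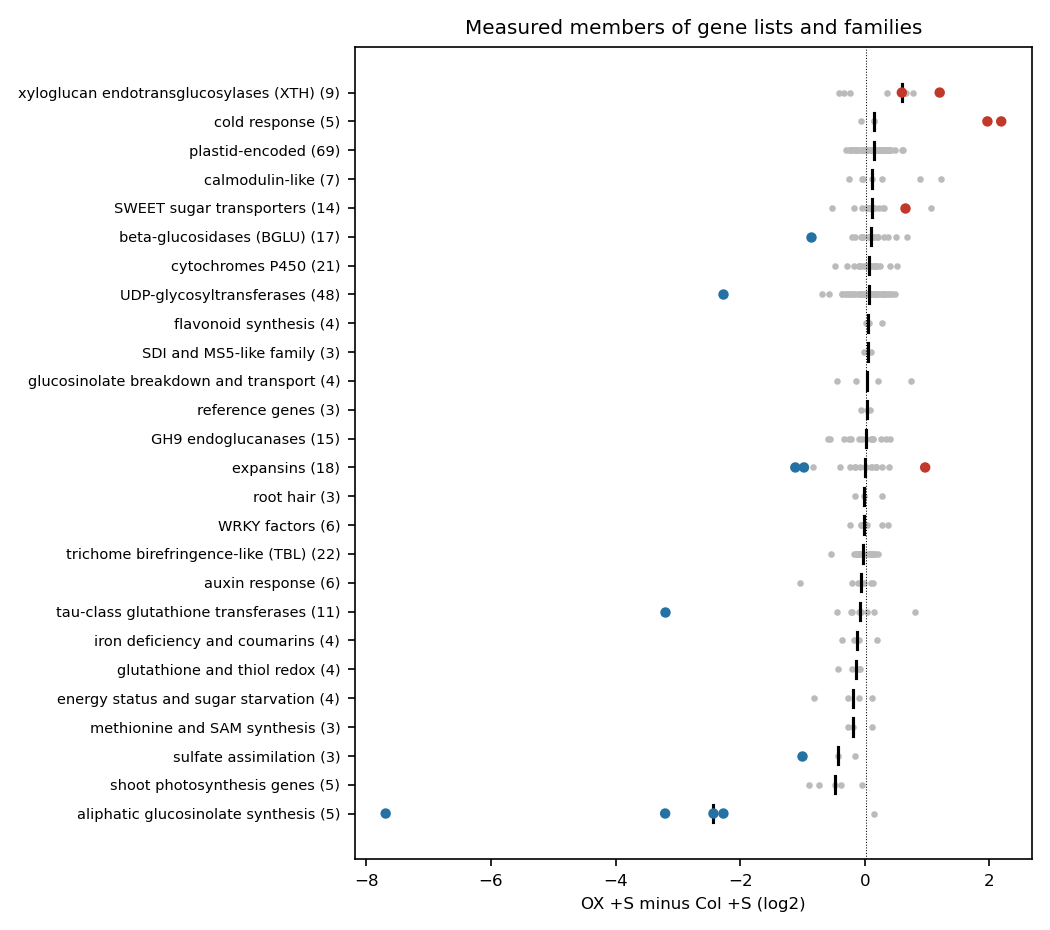
Difference between OX and Col at +S (log2, horizontal axis) for each measured member of the lists and families with at least 3 measured members, with red for called higher, blue for called lower, grey for not called, a black bar for the median and a dotted line at the median of all tested probe sets. The aliphatic glucosinolate genes stand furthest to the left, with a median of -2.43, and the XTH genes have the highest median, 0.60, which is the value of a gene under background (XTH26).

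Markers of tissue were read beside these results. The root hair genes EXPA7, EXPA18 and PER7 were present, with mean levels of 3.93 and 3.74 in OX, against 3.70 and 3.88 in Col +S, and none was called. SGN3, the receptor that guides the endodermal barrier, was at 2.21 and 2.16 in OX, against 2.23 and 2.14 in Col +S. The 5 measured genes of shoot photosynthesis had mean levels of 1.41 and 1.30 in OX, against 1.74 and 1.98 in Col +S. Their median difference was -0.48, and none of the 5 passed. An unadjusted limma p under 0.05 was found for 3 of the 5, beside 1999 of all 22197 tested probe sets. RCA (rubisco activase) had levels of 1.40 and 1.59 in OX, against 2.26 and 2.53 in Col +S (adjusted p = 0.06506). None of the 69 plastid-encoded probe sets was called (3 with an unadjusted p under 0.05), with a median of 0.15. The part of these shoot transcripts in the falls above was not tested. The reference genes TIP41, SAND and UBC21 had a median of 0.04.

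The knockout at low sulfate removes the SDI genes where wild-type roots express SDI2 strongly, and KO -S against Col -S shares no array with OX against Col at +S. SDI2 read 0.31 and -1.52 in KO -S, against 5.65 and 5.47 in Col -S. KO -S against Col -S called 632 probe sets (2.85%), 384 higher in KO (1.73%) and 248 lower (1.12%). Of the 90 probe sets lower in OX, 44 were higher in KO -S, which is 48.9% of the OX list and 11.5% of the KO list. Another 8 were lower in both, 8.89% of the OX list and 3.23% of the KO list. All 14 falls of at least 4-fold were among the 44, against 16 of 38 falls of 2-fold to 4-fold and 14 of 38 smaller ones.

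Among the 44 were genes of glucosinolate synthesis and SIR. BCAT4 read 8.70 and 8.90 in KO -S, against -0.63 and -1.35 in Col -S, where both arrays lay under background. GSTU20 read 6.32 and 6.38 in KO -S, against 1.01 and 0.61 in Col -S. SIR read 7.23 and 7.29 in KO -S, against 5.20 and 5.19 in Col -S. These genes were thus higher in the knockout at low sulfate and lower in OX at full sulfate. The differences in KO -S against Col -S were 4.29 for GSL-OH, 4.29 for UGT74C1, 4.36 for AT1G21440, 2.06 for SIR and 1.74 for AT3G14280. In Col -S, UGT74C1 read 0.59 and 0.23 and GSL-OH read 2.63 and 2.50, values that were not tested against OX at +S.

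Rises were set beside the knockout in the same way. Of the 54 probe sets higher in OX, 4 were lower in KO -S, 7.41% of the OX list and 1.61% of the KO list, and 7 were higher in both, 13.0% and 1.82%. SWEET13, which in OX lay above background in line 12 only, and 248676_at were among the 4. COR28 and PDC2 were among the 7, with differences in KO -S against Col -S of 1.37 (adjusted p = 0.009566) and 1.06 (adjusted p = 0.001967). For COR28 both Col -S arrays lay under background, so its 1.37 is a fitted difference and only a smaller rise is assured. COR27 lay under background in KO -S and in Col -S. EXPB3 was lower in both comparisons. AT2G36690 was also called lower in both, but no KO -S or Col -S array was above background for it. The median difference in KO -S against Col -S was 0.24 for the 54 rises and 0.50 for the 90 falls, beside -0.04 for all tested probe sets.

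**Figure D5:**
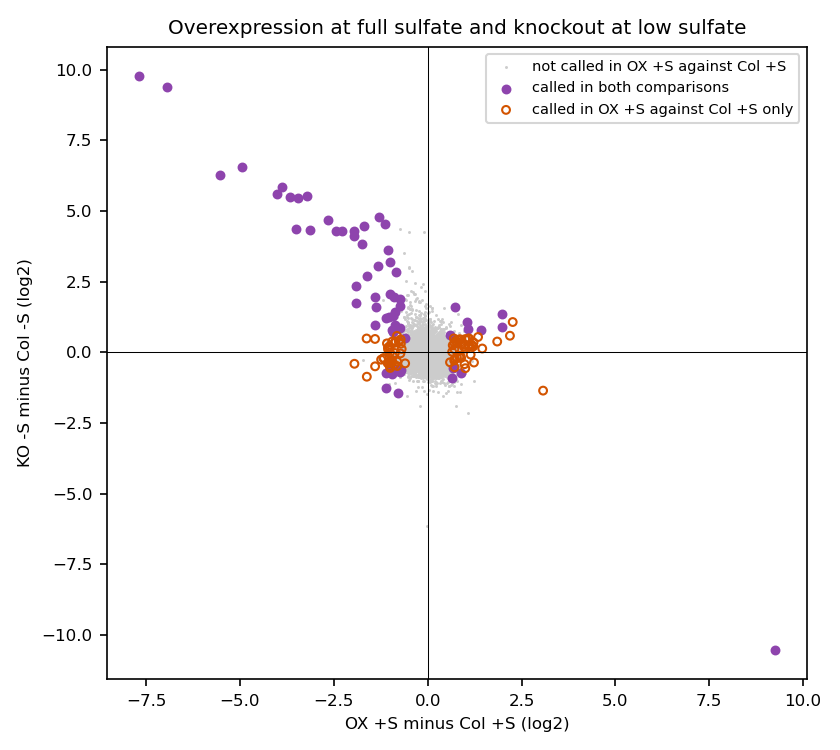
Difference between KO and Col at -S (log2, vertical axis) against the difference between OX and Col at +S (log2, horizontal axis), 1 point per tested probe set. The 14 falls of at least 4-fold in OX all lie in the upper left, 248676_at lies in the lower right, and most of the 54 rises lie near 0 on the vertical axis.

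The OX lines were set beside each other without a test. Over all tested probe sets, the median absolute difference was 0.16 between lines 6 and 12, against 0.12 between the Col +S arrays. Differences over 1 occurred in 69 probe sets between the OX lines and in 62 between the Col +S arrays, but among the 14906 probe sets above background in OX or Col +S in 21 and in 32. Line 12 lay farther from the Col +S mean than line 6 in 32 of the 54 rises (59.3%) and in 38 of the 90 falls (42.2%), beside 38.5% of all tested probe sets. Apart from AT5G04120, the called probe set in which the lines differed most was 250207_at, which has no listed gene. It read 4.05 in line 6 and 3.15 in line 12, 4.59 and 4.22 in KO +S, and 5.59 and 5.50 in Col +S. Its call was lost with the replicate block (adjusted p = 0.05857) and without either Col +S array, at up to 0.108. Within groups, arrays of the whole study correlated at 0.9904 to 0.9959, with 0.9924 for the OX lines.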

How the data were processed

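Root RNA was hybridised to ATH1 arrays, and each array was put in its group by its title. The authors deposited log10 expression values per probe set. Their background correction, summarization and normalization are not given in the sources used here. The log base was settled from spiked bacterial controls, which spanned 2.13 units against 1.82 expected on a log10 scale and 6.06 on a log2 scale. Their slope of 1.13 to 1.20 means that folds of bright probe sets may be overstated. Values were multiplied by 3.3219 to give log2, with no pseudocount or further normalization.

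Of 22810 probe sets, 554 had no value and 64 were controls. Genes were named where the platform annotation lists a single gene (13513 probe sets, 13436 matched to RefSeq TAIR10.1). The fit was a mean per group over 10 arrays with limma 3.58.1 in R 4.3.3 (lmFit, eBayes, 5 residual degrees of freedom), checked on simulated data. Background per array was the 0.95 quantile of 22 Bacillus control probe sets, -0.58 to 0.37 in log2. Where no array of the dimmer group exceeded it, the fold is a lower bound, taken on each dim array against the background or the measured value, whichever was higher. No fold is given with both groups under it, as for 7 of the 144 calls.

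The comparison, the 26 gene lists and the 17 families were chosen with earlier results of these data known, and none was tested as a set. Named genes were SDI2, the 12 largest rises and falls with a single gene, without overlap and above background in at least 1 group, up to 4 members of each list, and the 3 largest rises and falls without a listed gene. Alternatives were quantile normalization, median centring, filters on dim probe sets, a variance trend, fewer arrays, array weights, a replicate block, 1 probe set per gene and leaving out each array. KO arrays of the same line are paired by their plant line, and Col arrays share only a label number. Deviations from the group means correlated at 0.07 for the KO pairs and at -0.14 for the Col pairs.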

Additional observations from a re-analysis of the deposited data

How the results depend on the processing

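The count of 144 called probe sets (54 higher, 90 lower) was 267 (97 and 170) without the dimmest 0.25 of probe sets, 260 (96 and 164) with an intensity trend and robust variances, 71 (22 and 49) with only the 4 arrays compared and 51 (20 and 31) with 1 probe set per listed gene. Of the 144, 138, 140, 65 and 51 stayed called in these settings. The last setting holds only probe sets with a single listed gene, which 63 of the 144 have. A filter to probe sets above background on at least 2 arrays, chosen after seeing the data, gave 295 (112 and 183). The replicate block, in which KO is blocked by line and Col by label number, gave 75 (25 and 50), all among the 144, and the OX lines have numbers of their own. Fewer residual degrees of freedom follow from the block and from fewer arrays, and fewer probe sets are tested after a filter; other causes were not tested. Leaving out each array gave 36 to 131 calls, 10 to 46 higher and 26 to 85 lower. Opposite calls in OX against Col at +S and KO against Col at -S numbered 48, and 78 without the dimmest probe sets, 80 with the trend, 19 with 1 probe set per gene, 35 with the replicate block and 24 to 49 without single arrays. The settings with only the 4 or the 6 arrays gave no such count. With only the 4 arrays compared, lost calls included EXPB3, AT3G45700, AT1G56300, AT1G14960, XTH19, XTH26, EXPA4, EXLA2, SWEET13, BGLU44 and AT5G37970. Those of AT1G14960, XTH19, XTH26 and SWEET13 were also lost with only the 6 arrays at full sulfate. With quantile normalization, median centring, array weights and the 6 arrays at full sulfate, the calls numbered 128 to 184. No named probe set reversed, and 18 of the 35 called ones were called in every setting. No depth applies to arrays. The number of arrays limits the precision, and 32.9% of tested probe sets lay under background in both groups.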

Other observations

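A run of neighbouring genes on the list of falls was noticed after its values were seen. Of the 6 protein-coding loci from AT5G37970 to AT5G38020 in the RefSeq annotation, 4 had a listed probe set and 3 were lower in OX. AT5G37970, AT5G37990 and AT5G38020 belong to the SABATH methyltransferase family. AT5G37990 averaged 4.03 ± 0.10 in OX and 5.03 ± 0.03 in Col +S (SD, n = 2 each), without overlap, and fell by 1.00 on the log2 scale with an SE of 0.10 (limma adjusted p = 0.003436, and 0.05174 without Col +S array 1). AT5G37970 read 1.65 and 1.55 in OX, against 2.66 and 2.41 in Col +S, a difference of -0.94 ± 0.15 (limma adjusted p = 0.03728, lost in 8 of the 10 fits that left out an array, at up to 0.2827, and with the replicate block at 0.1454). AT5G38020 read 1.83 and 1.81 in OX, against 2.82 and 2.98 in Col +S. AT5G37980, which lies between them, was under background on all 4 arrays. Cross-hybridisation among these relatives was not tested.

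Among smaller rises, also chosen after their values were seen, THIC, the pyrimidine synthase of thiamine synthesis, read 1.38 and 1.23 in OX, against 0.42 and 0.40 in Col +S, a rise of 0.89 ± 0.11 (limma adjusted p = 0.006921, lost without either Col +S array or OX line 6 at up to 0.0749). AT1G72810, a threonine synthase homologue, was lower, at 1.63 and 1.68 in OX, against 2.41 and 2.36 in Col +S (limma adjusted p = 0.02556, lost without any single +S array at up to 0.2109 and with the replicate block at 0.09852). In KO -S against Col -S its difference was 1.90 (limma adjusted p = 2.447e-05).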
